A study of Mus musculus with 20 samples.

Results

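The natriuretic peptides, osteocrin, their receptors and the protease corin were followed as 8 genes in hearts and skeletal muscles of Taz-KD and WT mice. The members were the rows of both count tables whose Ensembl identifiers carry the symbols Nppa, Nppb, Nppc, Ostn, Npr1, Npr2, Npr3 and Corin in the GENCODE M21 annotation of GRCm38, 8 of 54221 genes in the tables, and all 8 had a row in each table. Ostn was chosen for its difference in heart, so its heart values are given as a description with no test. The Taz-KD mice carried the transgene ROSA26H1/tetO-shRNA:TAZ, a short hairpin RNA against Taz that doxycycline switches on, and the WT mice were C57BL/6N. Both genotypes ate chow with 625 mg/kg doxycycline up to an age of 20 weeks, so the drug is shared by all groups. There were 5 Taz-KD and 5 WT libraries of heart and 5 Taz-KD and 5 WT libraries of femur muscle. Each carried its own number and was taken as its own mouse. The knockdown is a transgenic reduction and not a deletion, and Taz was lower in both tissues.

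Natriuretic peptides are small circulating hormones with a ring that their receptors recognise. Atrial (Nppa) and B-type (Nppb) natriuretic peptide are made by heart muscle cells, mainly in the atria and, under load, in the ventricles, and they act on kidney, vessels and fat, while C-type natriuretic peptide (Nppc) acts locally in vessels and growing bone. Npr1 and Npr2 encode the receptors that make cyclic GMP (cGMP) on binding, Npr1 for the atrial and B-type peptides and Npr2 for the C-type peptide. Npr3 encodes the clearance receptor, which takes the peptides up and removes them. Osteocrin, also called musclin (Ostn), is secreted by muscle and bone, resembles the natriuretic peptides and binds the clearance receptor without activating the cyclase receptors. Corin is a membrane protease of heart muscle that cuts the precursor of atrial natriuretic peptide into its active form.

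Total counts ran from 26963288 to 35301909 per library in heart and from 36429399 to 74361382 in muscle. CPM below are counts scaled to a common library total with TMM factors within a tissue, log2(FC) is the fitted log2 ratio of Taz-KD over WT with its standard error (SE), and a gene was called when its adjusted p from edgeR's quasi-likelihood test was under 0.05. Taz itself measured 11.7 ± 0.731 CPM in Taz-KD hearts and 37.8 ± 1.40 CPM in WT hearts (SD, n = 5 each), and 13.4 ± 1.05 CPM in Taz-KD muscles and 51.7 ± 3.42 CPM in WT muscles (SD, n = 5 each). Its levels did not overlap between genotypes in either tissue. The 7 heart muscle markers summed to between 38612 and 52195 CPM in Taz-KD hearts and between 39251 and 53275 CPM in WT hearts. The 8 skeletal muscle markers summed to between 95915 and 162265 CPM in Taz-KD muscles and between 38272 and 151994 CPM in WT muscles. Rn7sk, an RNA without a poly(A) tail, held 7767 to 10855 CPM of the raw library total in the 10 hearts and 0.018 to 0.444 CPM in the 10 muscles, so the libraries of the tissues differ in make-up, and levels set across tissues carry that limit.

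Nppa and Nppb are neighbours on chromosome 4 of GRCm38 and read in the same direction (+ strand). Nppb (ENSMUSG00000029019) spans chr4:147985788-147987205 and Nppa (ENSMUSG00000041616) spans chr4:148000722-148002079, with 13516 bases between them. Their levels moved together among the WT hearts, as shown next, so the 250 bases before each start are printed here from the RefSeq table (GRCm38.p6), 5′ to 3′. Capitals mark matches, on either strand, to GATAA (GATA factors), TNAAGTG (NKX2-5), CATTCC (TEAD factors) and AGGTGT (T-box factors). The Nppa window is chr4:148000472-148000721 and the Nppb window is chr4:147985650-147985899. GENCODE M21 places the first base of Nppb inside that window, 112 bases before the start that RefSeq uses.

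Nppa: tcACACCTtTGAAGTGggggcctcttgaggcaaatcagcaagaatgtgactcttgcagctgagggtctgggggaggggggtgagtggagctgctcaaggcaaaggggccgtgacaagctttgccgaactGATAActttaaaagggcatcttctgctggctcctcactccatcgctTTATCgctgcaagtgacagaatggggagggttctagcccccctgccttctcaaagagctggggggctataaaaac

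Nppb: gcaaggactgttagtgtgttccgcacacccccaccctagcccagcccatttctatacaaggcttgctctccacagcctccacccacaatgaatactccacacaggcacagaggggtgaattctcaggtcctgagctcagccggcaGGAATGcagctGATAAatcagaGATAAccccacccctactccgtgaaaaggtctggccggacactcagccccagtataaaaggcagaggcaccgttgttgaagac

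Both windows held 2 matches to GATAA, at -121 to -117 and -75 to -71 from the start in Nppa and at -94 to -90 and -83 to -79 in Nppb. Nppa also held TNAAGTG at -241 to -235 and AGGTGT, on the opposite strand, at -248 to -243. Nppb held CATTCC, on the opposite strand, at -105 to -100. No marked matches overlapped. Neither window held an exact CArG box of serum response factor, CCWWWWWWGG with W for A or T. Boxes with a mismatch were not searched for. Of 32851 promoter windows of that length, 22.6% held GATAA, 10.1% TNAAGTG, 12.6% CATTCC, 11.8% AGGTGT and 1.5% the CArG box. A match describes the letters and is no evidence of binding. Of the other members in the RefSeq table (7 of the 8 have an entry), AGGTGT was found at -151 to -146 of Npr2, and the windows of Nppc, Npr1, Npr3 and Corin held no match.

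Ostn RNA was abundant in every Taz-KD heart and near 0 in every WT heart. Ostn (ENSMUSG00000052276, chr16:27307489-27351212, + strand) measured 31.7, 27.4, 30.2, 21.9 and 18.6 CPM in the Taz-KD hearts R1793, R1796, R1797, R1798 and R2. It measured 0.0752, 0.0345, 0.0350, 0 and 0.161 CPM in the WT hearts R1791, R1792, R1795, R1800 and R3. The lowest Taz-KD heart therefore lay far above the highest WT heart, and the spread among Taz-KD hearts was narrow, with a mean of 26.0 ± 5.58 CPM against 0.0611 ± 0.0618 CPM in WT (SD, n = 5 each). In counts, 4249 reads of Ostn were found in the Taz-KD hearts and 9 in the WT hearts, 5 of these 9 in R3 alone. The ratio of the pooled levels was 416, given as a description. The fitted log2(FC) was 8.61, and it was 9.36 without R3 and 9.46 without R2 and R3, since the WT level rests on so few reads. With the WT hearts near 0, the size of the ratio is known less well than the Taz-KD level.

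**Figure D1:**
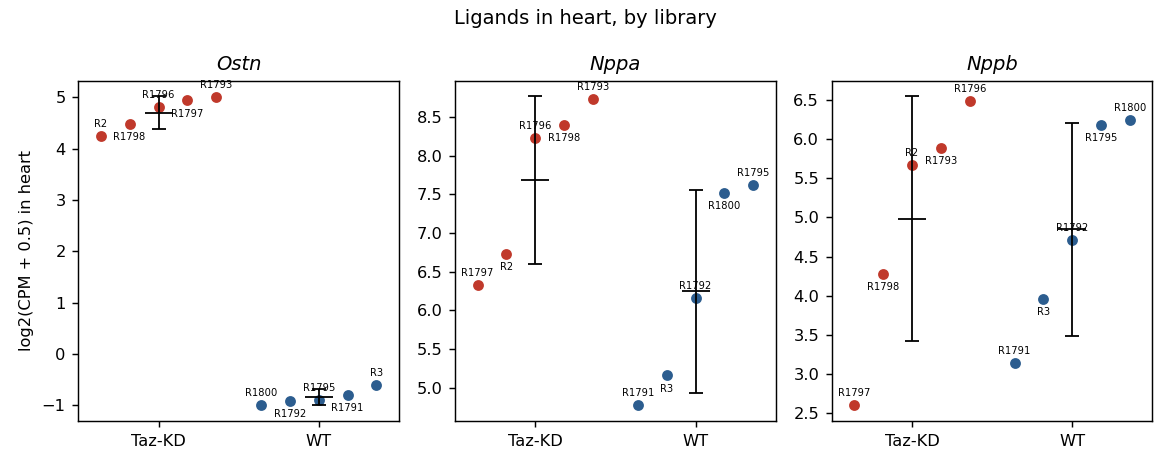
Ligand RNA in heart by library: each point is 1 heart, the vertical axis is log2(CPM + 0.5), and the black bar is the mean with the SD of 5 hearts. The Ostn points of the Taz-KD hearts (18.6 to 31.7 CPM) and WT hearts (0 to 0.161 CPM) lie far apart, while those of Nppa and Nppb overlap.

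Nppa and Nppb, the 2 peptides that heart muscle raises under load, did not pass the test in heart. Nppa measured 427, 299.7, 79.7, 338 and 106 CPM in the Taz-KD hearts R1793, R1796, R1797, R1798 and R2. In the WT hearts R1791, R1792, R1795, R1800 and R3 it measured 26.8, 71.0, 196, 184 and 35.2 CPM. All 5 Taz-KD hearts lay above the WT median of 71.0 CPM, but 2 of them lay below the 2 highest WT hearts, so the genotypes overlapped. The log2(FC) was 1.29 (SE 0.71, adjusted p = 0.235, edgeR), and a permutation test (exact, two-sided, all 252 divisions of the 10 hearts into 5 and 5) gave p = 0.111. Across 21 other settings the log2(FC) of Nppa stayed between 1.0 and 1.66, and its adjusted p between 0.117 and 0.404.

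Nppb varied over a wide range in both genotypes. It measured 58.9, 89.0, 5.56, 18.9 and 50.2 CPM in the Taz-KD hearts, in the same order, and 8.31, 25.6, 72.0, 75.0 and 15.1 CPM in the WT hearts. Its lowest value of all belonged to the Taz-KD heart R1797 and its highest to the Taz-KD heart R1796. Nppb had a log2(FC) of 0.18 (SE 0.82, adjusted p = 0.899, edgeR; exact permutation p = 0.897), and its sign changed with the setting, from -0.23 to 0.79.

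Among the WT hearts, R1791, R3 and R1792 were the lowest for both peptides in that order, and R1795 and R1800 were far above them. R1797 was the lowest Taz-KD heart for both. R1798 departed from this, with 338 CPM of Nppa, the next to highest level of all hearts, and only 18.9 CPM of Nppb. R1793, with the most Nppa of all (427 CPM), had 58.9 CPM of Nppb, less than R1795 and R1800.

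**Figure D2:**
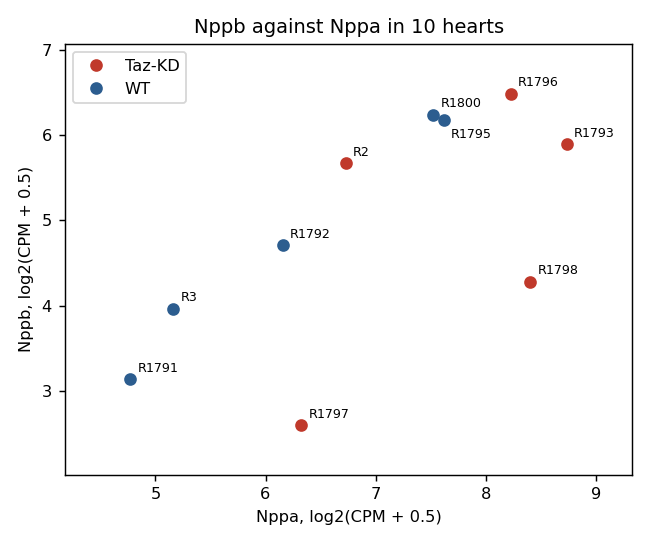
Nppb against Nppa in the 10 hearts, both as log2(CPM + 0.5), with each point labelled by its mouse. The 5 WT hearts lie along a line from R1791 (26.8 CPM of Nppa and 8.31 CPM of Nppb) to R1795 and R1800, and the Taz-KD hearts R1797 and R1798 lie below it, as does R1793 (427 CPM of Nppa and 58.9 CPM of Nppb) below its extension.

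Atria hold far more Nppa RNA than ventricles, so the atrial markers are given beside it. The 12 atrial markers summed to between 213 and 502 CPM in Taz-KD hearts and between 219.6 and 343 CPM in WT hearts. Kcnj5 and Kcnj3, which are also expressed outside the atria, took much of the sum, with means of 109 and 55.1 CPM in Taz-KD hearts and 70.4 and 104.5 CPM in WT hearts. Myl7, the atrial light chain of myosin, measured 0.366, 50.4, 28.2, 59.7 and 0.218 CPM in the Taz-KD hearts, in the order R1793, R1796, R1797, R1798 and R2. It measured 1.77, 11.7, 0.420, 0 and 8.79 CPM in the WT hearts R1791, R1792, R1795, R1800 and R3. R1796 and R1798 were thus high in both Myl7 and Nppa, R1797 was high in Myl7 and low in Nppa, and R1793, R1795 and R1800 were high in Nppa with little Myl7. Myl7 (log2(FC) 2.61, adjusted p = 0.246, edgeR), Myl4 (2.07, adjusted p = 0.271), Sln (2.53, adjusted p = 0.209) and Mybphl (2.63, adjusted p = 0.146) had higher means in Taz-KD hearts and did not pass, with the same 3 Taz-KD hearts, R1796, R1797 and R1798, above every WT heart in each. Bmp10, a growth factor of the atria, had 181 reads in the Taz-KD hearts and 2 in the WT hearts, and it did not reach the filter on low counts. It ran from 0.0942 to 3.64 CPM in Taz-KD hearts and from 0 to 0.0689 CPM in WT hearts. All Taz-KD hearts thus lay above all WT hearts, by a margin near the floor, as was so for 11.3% of the genes tested. Of 11 atrial markers tested, Kcnj5 was called higher (log2(FC) 0.64, SE 0.11, adjusted p = 0.00148, edgeR) and Kcnj3 lower (log2(FC) -0.92, SE 0.22, adjusted p = 0.0123, edgeR). That is 18.2% of the atrial markers tested, against 24.6% of all genes tested in heart. Of the other atrial markers tested, Stard10 (log2(FC) 0.34) and Dkk3 (0.20) were higher in mean, and Gja5 (-0.04), Nr2f2 (-0.16) and Nr2f1 (-0.27) were lower. None of these passed (adjusted p from 0.227 to 0.916, edgeR), and the genotypes overlapped in each. With the mean of the atrial markers as a covariate, the log2(FC) of Nppa was 1.66 (adjusted p = 0.249, edgeR) and that of Nppb 0.79 (adjusted p = 0.619, edgeR). Beyond those fits, the part of atrial tissue in the level of Nppa was not tested.

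Nppa shares 532 exonic bases with Gm13054, a gene annotated on the opposite strand, whose counts were 69.5% to 80.2% of those of Nppa in each heart. The libraries mark the strand, but the strand setting of the counting is not given in the sources used here, so reads of this pair cannot be told apart with certainty. The same limit holds for Npr1 with Gm16048 (17.3% to 21.1% of its counts in heart), Npr2 with Gm12473 (12.9% to 18.7%) and Corin with Gm20647 (9.25% to 11.1%). Npr3 shares 321 exonic bases with Gm5144, whose counts were 0% to 1.26% of those of Npr3 in each muscle. Ostn shares 184 exonic bases with Gm32312, which was not analysed here.

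Nppc (ENSMUSG00000026241, chr1:86666291-86670571, - strand) was hardly present in heart. There were 8 reads in the 5 Taz-KD hearts and 12 in the 5 WT hearts, from 0 to 5 in a library, and the gene did not reach the filter on low counts. The ratio of the pooled levels was 0.588 (95% counting interval 0.208 to 1.56), so no difference was detectable at this depth.

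Of the 6 members tested in heart with Ostn left aside, 1 was called, against 24.6% of the 19486 genes tested (14.4% higher and 10.3% lower in Taz-KD). That member was Npr2 (ENSMUSG00000028469, chr4:43631935-43651244, + strand), the receptor of the C-type peptide, which was slightly but evenly lower. It measured 58.9, 60.5, 61.2, 55.5 and 58.5 CPM in the Taz-KD hearts R1793, R1796, R1797, R1798 and R2. The WT hearts R1791, R1792, R1795, R1800 and R3 measured 65.8, 77.3, 68.8, 66.2 and 71.2 CPM. Every Taz-KD heart lay below every WT heart, as was so for 7.05% of the genes tested, while 11.3% had all Taz-KD hearts above and 18.3% did not overlap in either direction. The log2(FC) was -0.25 (SE 0.06, adjusted p = 0.00808, edgeR), a level 0.844 times that of WT, and the exact permutation test gave p = 0.00794, the smallest it can give with 5 against 5. The call was lost when all 20 libraries of both tissues shared a fit (log2(FC) -0.27, adjusted p = 0.149, edgeR).

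Npr1 (ENSMUSG00000027931, chr3:90450591-90465866, - strand), the receptor of the atrial and B-type peptides, measured 33.7, 27.9, 37.4, 28.3 and 28.2 CPM in the Taz-KD hearts and 34.1, 42.2, 36.9, 30.9 and 44.7 CPM in the WT hearts, in the orders given above. Of the Taz-KD hearts, 1 lay above the WT median of 36.9 CPM. The log2(FC) of -0.28 (SE 0.11) did not pass the test (adjusted p = 0.0921, edgeR; exact permutation p = 0.0635). Npr1 passed without the WT heart R1800 (log2(FC) -0.35, adjusted p = 0.0408, edgeR) and without the Taz-KD heart R1797 (log2(FC) -0.36, adjusted p = 0.0364, edgeR).

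In bulk tissue, fewer cells of a type and less RNA per cell cannot be told apart. The 9 endothelial markers summed to between 836 and 940.4 CPM in Taz-KD hearts and between 1012 and 1185 CPM in WT hearts, with no overlap. Of the 9, 4 were called lower, against 10.3% of all genes tested, namely Pecam1 (log2(FC) -0.33, SE 0.07), Tek, Tie1 and Emcn. They passed in 20, 19, 14 and 9 of 21 other settings in that order, and none of the 4 passed in the joint fit of 20 libraries (adjusted p from 0.054 to 0.293, edgeR). The fibroblast markers summed to between 719 and 1294 CPM in Taz-KD hearts and between 899 and 1931 CPM in WT hearts. Of these markers 0 of 7 were called, against 24.6% of all genes tested. The median log2(FC) was -0.28 for the fibroblast markers and -0.24 for the endothelial markers, against -0.02 for all genes tested. The part of these cells in the levels of Npr1 and Npr2 was not tested.

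Npr3 (ENSMUSG00000022206, chr15:11839896-11907287, - strand), the clearance receptor, had nearly equal means in the genotypes, with 43.4 ± 11.7 CPM in Taz-KD hearts and 41.8 ± 22.2 CPM in WT hearts (SD, n = 5 each). The Taz-KD hearts measured 48.2, 37.2, 42.7, 60.1 and 29.0 CPM and the WT hearts 53.7, 63.5, 12.4, 24.3 and 55.3 CPM. The 2 low WT hearts, R1795 with 12.4 CPM and R1800 with 24.3 CPM, were those with the most Nppa and Nppb of their genotype. The Taz-KD hearts did not repeat this for Nppa: R1798 and R1793, highest in Npr3 (60.1 and 48.2 CPM), also had the most Nppa (338 and 427 CPM). Its log2(FC) of 0.05 did not pass (SE 0.42, adjusted p = 0.945, edgeR; exact permutation p = 0.667), and the sign changed with the setting, from -0.18 to 0.29.

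Corin (ENSMUSG00000005220, chr5:72300025-72504473, - strand) ran from 263 to 373 CPM in Taz-KD hearts, with a median of 294 CPM, and from 259 to 419 CPM in WT hearts, with a median of 294 CPM. Corin had a log2(FC) of 0.03 (SE 0.14, adjusted p = 0.916, edgeR; exact permutation p = 0.817), and the genotypes overlapped almost wholly.

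**Figure D3:**
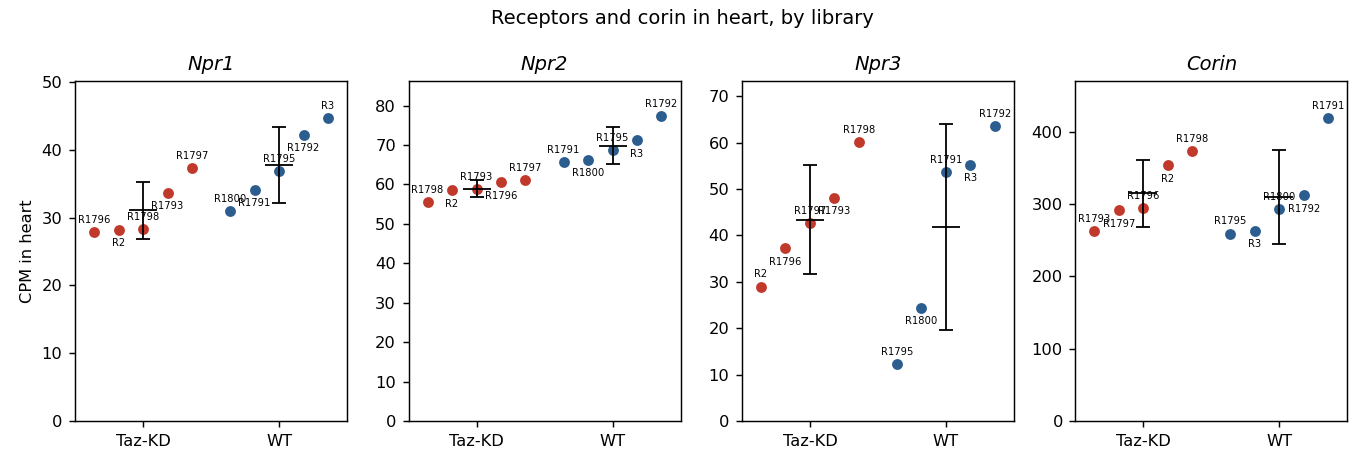
RNA of the receptors and of corin in heart by library: each point is 1 heart, the vertical axes are CPM from 0, and the black bar is the mean with the SD of 5 hearts. In Npr2 the Taz-KD hearts (55.5 to 61.2 CPM) all lie below the WT hearts (65.8 to 77.3 CPM), and in the other panels the genotypes overlap.

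Skeletal muscle, the tissue for which osteocrin was named musclin, held Ostn in both genotypes. It measured 46.4, 10.8, 56.6, 51.4 and 52.7 CPM in the Taz-KD muscles A34, A39, A52, A56 and A58. It measured 2.62, 45.4, 35.1, 58.4 and 29.7 CPM in the WT muscles A33, A40, A51, A55 and A57. The genotypes overlapped, with 1 low library in each, A39 in Taz-KD and A33 in WT. Ostn had a log2(FC) of 0.35 in muscle (SE 0.63, adjusted p = 0.779, edgeR; exact permutation p = 0.508), and it ranged from -0.27 to 0.89 over the other settings. The rule did not use muscle, so this is a test of Ostn on samples that did not choose it.

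Of the 6 members tested in muscle, 0 were called with edgeR, against 0.0186% of the 16145 genes tested (2 genes, or 0.0124%, higher and 1 gene, or 0.00619%, lower in Taz-KD). Of the 6, 1 had an unadjusted p under 0.05 (Npr3), and DESeq2 and the joint fit of 20 libraries each called 1 (Npr3). No member was without overlap between genotypes, as were 2.14% of the genes tested (1.06% with all Taz-KD muscles above and 1.08% with all below).

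Npr3 was low in Taz-KD muscles and high in most WT muscles. It measured 4.52, 5.0, 3.23, 4.11 and 11 CPM in the Taz-KD muscles A34, A39, A52, A56 and A58. In the WT muscles A33, A40, A51, A55 and A57 it measured 83.4, 26.6, 29.0, 74.3 and 5.87 CPM. Among WT muscles A57 was the exception, and it lay below the Taz-KD muscle A58. The log2(FC) was -2.98 (SE 0.64, unadjusted p = 0.000693, adjusted p = 0.311, edgeR), and the exact permutation test of this gene alone gave p = 0.0159. DESeq2 gave a log2(FC) of -2.96 with an adjusted p of 9.6e-05, and the joint fit of 20 libraries with edgeR gave -2.91 with an adjusted p of 0.0321, so the call depends on the method.

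Markers of fat cells moved with Npr3 among the WT muscles. The 5 adipocyte markers (Adipoq, Plin1, Cidec, Lep and Fabp4) summed to 168, 349.5, 219, 165 and 299.8 CPM in the Taz-KD muscles A34, A39, A52, A56 and A58. They summed to 2919, 258, 655, 1304 and 206 CPM in the WT muscles A33, A40, A51, A55 and A57. The muscles with the most Npr3, A33 and A55, were those with the largest sums, and A57 had low values of both, while A40 had 26.6 CPM of Npr3 beside a sum within the range of the Taz-KD muscles. All 5 markers were above 0 in each muscle. Of the 5, 0 were called, against 0.0186% of all genes tested (median log2(FC) -3.34, against -0.02 for all genes tested). Without A33 and A55 the log2(FC) of Npr3 was -1.89 (adjusted p = 0.937, edgeR), and with the mean of the adipocyte markers as a covariate it was -1.58 (adjusted p = 1.0, edgeR).

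**Figure D4:**
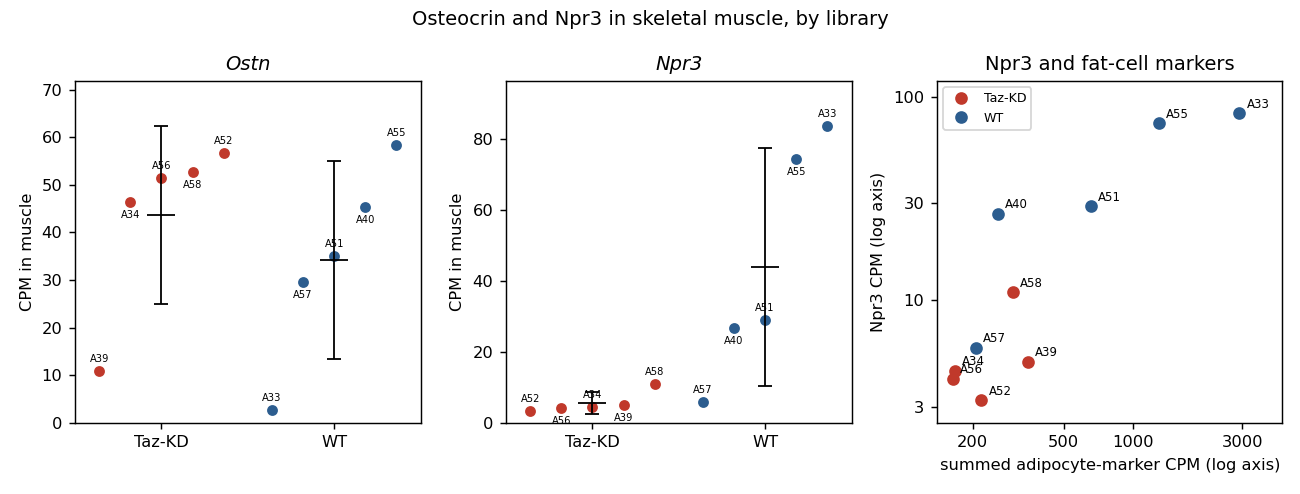
Osteocrin and Npr3 in skeletal muscle: the left and middle panels give the CPM of each muscle with the mean and SD of 5, and the right panel sets Npr3 against the summed CPM of the adipocyte markers, both on log axes. Ostn overlaps between genotypes, and the WT muscles A33 and A55 are highest both in Npr3 (83.4 and 74.3 CPM) and in the adipocyte sum (2919 and 1304 CPM).

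Fibre type also differed between muscles. The 6 slow-fibre markers summed to between 57.6 and 3611 CPM in Taz-KD muscles and between 285 and 17754 CPM in WT muscles. None of them was called, against 0.0186% of all genes tested (median log2(FC) -2.39, against -0.02 for all genes tested). With the mean of the slow-fibre markers as a covariate, the log2(FC) was -2.76 for Npr3 (adjusted p = 0.411, edgeR) and 0.89 for Ostn (adjusted p = 0.621, edgeR).

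None of the other members passed the test in muscle. Npr2 measured 73.7 ± 9.29 CPM in Taz-KD muscles and 73.7 ± 14.2 CPM in WT muscles (SD, n = 5 each; log2(FC) 0.00, SE 0.14, adjusted p = 1.0, edgeR). Npr1 measured 17.7 ± 2.43 CPM in Taz-KD muscles and 20.3 ± 3.02 CPM in WT muscles (SD, n = 5 each; log2(FC) -0.20, SE 0.13, adjusted p = 0.446, edgeR). Nppc was present at a trace, with 37 reads in Taz-KD muscles and 51 in WT muscles (log2(FC) -0.78, SE 0.43, adjusted p = 0.400, edgeR; exact permutation p = 0.0714), and 0 of 5 Taz-KD muscles lay above the WT median. Corin was a trace as well, with 98 reads in Taz-KD muscles and 117 in WT muscles (log2(FC) -0.51, SE 0.31, adjusted p = 0.434, edgeR). Of Nppa there were 5 reads in the Taz-KD muscles and 3 in the WT muscles, and of Nppb 0 reads in all 10, which allows up to 0.0105 CPM over the Taz-KD muscles and 0.0125 CPM over the WT muscles.

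The difference of the genotype effect between the tissues was tested as an interaction in a fit of all 20 libraries, in which 4.62% of 20612 genes were called (heart minus muscle). Of the members that the choice of Ostn leaves for this test, Npr3 was called, with a difference of 2.94 on the log2 scale (SE 0.74, adjusted p = 0.0285, edgeR). It rests on own-tissue values of 0.05 in heart and -2.98 in muscle, and it did not pass with limma-voom (2.80, adjusted p = 0.0628), without the WT muscles A33 and A55 (1.93, adjusted p = 0.171, edgeR), or with any 1 of the WT muscle A33, the WT heart R1800 and the Taz-KD heart R1798 left out (adjusted p = 0.0555, 0.055 and 0.0508, edgeR). The differences of Npr1 (-0.15, SE 0.16, adjusted p = 0.659, edgeR), Npr2 (-0.31, SE 0.16, adjusted p = 0.294, edgeR) and Corin (0.48, SE 0.31, adjusted p = 0.422, edgeR) did not pass. Nppa and Nppb have almost no reads in muscle, so the test says nothing about them. Own values of Ostn were 8.61 in heart and 0.35 in muscle, side by side and without a test.

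Across the 4 groups, scaled together, Ostn stood at 20.4 ± 4.14 CPM in Taz-KD hearts, 0.0484 ± 0.0482 in WT hearts, 55.8 ± 24.1 in Taz-KD muscles and 43.3 ± 26.0 CPM in WT muscles (SD, n = 5 each). The mean of the Taz-KD hearts (14.8 to 24.6 CPM) thus lay below the means of both muscle groups. The muscle ranges (13.8 to 74.3 CPM in Taz-KD and 2.96 to 72.4 CPM in WT) reached down to these hearts through A39 and A33, the low muscles named above. The WT hearts lay below all other libraries. Npr3 had the order WT muscle (53.0 ± 38.4 CPM), Taz-KD heart (34.2 ± 9.41), WT heart (33.4 ± 17.5) and Taz-KD muscle (7.07 ± 3.79), and its 3 upper groups overlapped, as did the lowest with both WT groups. Npr2 was higher in both muscle groups (94.2 ± 10.8 CPM in Taz-KD and 91.8 ± 18.6 CPM in WT) than in Taz-KD hearts (46.4 ± 1.34 CPM) and WT hearts (56 ± 3.30 CPM), with no overlap between tissues. The 4 groups of Npr1 lay between 22.6 and 30.2 CPM in mean and overlapped. Nppa, Nppb and Corin belonged to heart: Corin stood at 248 CPM in hearts of either genotype, against 0.442 CPM in Taz-KD muscles and 0.620 CPM in WT muscles. The differing make-up of heart and muscle libraries, given above, applies to each of these cross-tissue levels.

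To compare genes with one another, CPM were divided by the exonic length in kb. In Taz-KD hearts the order was Nppa (289 ± 175 CPM per kb), Corin (58.3 ± 8.56), Nppb (57 ± 42.4), Ostn (18.2 ± 3.92), Npr2 (12.6 ± 0.476), Npr1 (6.5 ± 0.888), Npr3 (4.62 ± 1.25) and Nppc (0.0478 ± 0.0457 CPM per kb; SD, n = 5 each). In WT hearts it was Nppa (119 ± 94.3), Corin (57.3 ± 12.0), Nppb (50.2 ± 40.9), Npr2 (15 ± 1.01), Npr1 (7.90 ± 1.19), Npr3 (4.46 ± 2.36), Nppc (0.0788 ± 0.0604) and Ostn (0.0430 ± 0.0434 CPM per kb). Corin and Nppb did not differ beyond their spread in either genotype, nor did Nppc and Ostn in WT hearts. In Taz-KD hearts Ostn had a higher mean than all 3 receptors per length, though per kb of the longest coding transcript Npr2, at 16.1, was within the spread of Ostn, and in WT hearts Ostn was the lowest with Nppc. In muscle Ostn had the highest mean in both genotypes (30.6 ± 13.1 CPM per kb in Taz-KD and 24.1 ± 14.6 in WT), followed by Npr2 (15.8 ± 1.99 in Taz-KD and 15.8 ± 3.04 in WT). In WT muscles that difference was within the spread of Ostn, and Ostn was below Npr2 in A39 (7.57 against 16.8 CPM per kb) and in A33 (1.84 against 13.8 CPM per kb).

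The counts of called genes in the pathway lists that follow stand beside 24.6% of all genes called in heart, 14.4% higher and 10.3% lower. Of 11 genes listed that process or break down the peptides, 9 were tested, and 1 was called higher and 2 lower, 33.3% in all (median log2(FC) -0.18, against -0.02 for all genes tested). Ide, the insulin-degrading enzyme, which also cleaves atrial natriuretic peptide, measured 132 ± 8.07 CPM in Taz-KD hearts and 95 ± 7.49 CPM in WT hearts (SD, n = 5 each; log2(FC) 0.47, SE 0.07, adjusted p = 0.000306, edgeR). Mme, the membrane protease neprilysin, which degrades natriuretic peptides, measured 10.0 ± 3.01 CPM in Taz-KD hearts and 16.4 ± 1.92 CPM in WT hearts (SD, n = 5 each; log2(FC) -0.71, SE 0.18, adjusted p = 0.0147, edgeR). Pcsk6, the protease that activates corin, measured 67.5 ± 3.03 CPM in Taz-KD hearts and 90.1 ± 9.52 CPM in WT hearts (SD, n = 5 each; log2(FC) -0.42, SE 0.07, adjusted p = 0.00140, edgeR). None of these 3, the called genes of the list, overlapped between genotypes, as was so for 18.3% of all genes tested in heart. Furin, which cuts the precursors of the B-type and C-type peptides, was not called (log2(FC) -0.18, adjusted p = 0.0795, edgeR), nor was Ece1 (log2(FC) -0.33, adjusted p = 0.0618, edgeR).

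Downstream, cGMP is broken down by phosphodiesterases, and 3 of the 10 tested in that list were called higher and 1 lower in Taz-KD hearts, against 14.4% and 10.3% of all genes (median log2(FC) 0.13). Pde2a, also listed, had no row among the heart counts and was not tested there. Pde1c, a phosphodiesterase activated by calcium and calmodulin, measured 155, 184, 155, 199.6 and 206 CPM in the Taz-KD hearts R1793, R1796, R1797, R1798 and R2, and 114, 84.8, 90.7, 101 and 109 CPM in the WT hearts R1791, R1792, R1795, R1800 and R3. Its log2(FC) was 0.85 (SE 0.10, adjusted p = 0.000100, edgeR), and it passed in all 21 other settings. Pde11a measured 5.63 ± 1.64 CPM in Taz-KD hearts and 1.80 ± 0.964 CPM in WT hearts (SD, n = 5 each; log2(FC) 1.64, SE 0.31, adjusted p = 0.00289, edgeR), also in all 21. Pde6d, a carrier of lipid-modified proteins first known as a phosphodiesterase subunit, was higher (log2(FC) 0.34, adjusted p = 0.0162, edgeR; passed in 19 of 21 other settings), and Pde10a was lower with an adjusted p of 0.0487 (log2(FC) -0.40, edgeR) that passed in 6 of 21 other settings. Pde3a (log2(FC) 0.13, adjusted p = 0.288, edgeR) and Pde5a (log2(FC) 0.12, adjusted p = 0.782, edgeR) were not called.

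Of the soluble guanylyl cyclase and nitric oxide synthase genes, the other source of cGMP, 0 of 6 tested were called higher and 2 lower, 33.3% against 24.6% of all genes (median log2(FC) -0.29). Gucy1a2, a subunit of the soluble cyclase, measured 19.4 ± 0.525 CPM in Taz-KD hearts and 25.3 ± 1.43 CPM in WT hearts (SD, n = 5 each; log2(FC) -0.38, SE 0.06, adjusted p = 0.000524, edgeR). Nos3, the endothelial nitric oxide synthase, had a log2(FC) of -0.46 (SE 0.13, adjusted p = 0.0208, edgeR; passed in 16 of 21 other settings), beside the lower endothelial markers given above. Among the cGMP kinase and its partners, 1 of 9 tested was called, 11.1% against 24.6% of all genes. It was Vasp, a substrate of that kinase (log2(FC) 0.43, SE 0.12, adjusted p = 0.0208, edgeR), which passed in 17 of 21 other settings and not without R1792, R1793 or R1796 (adjusted p = 0.0557, 0.0522 and 0.0539, edgeR). None of the 7 other membrane guanylyl cyclases and their peptides reached the filter in heart.

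Of 18 transcription factors known from natriuretic peptide genes, all tested in heart, 2 were called higher and 1 lower, 16.7% against 24.6% of all genes (median log2(FC) -0.01). Nkx2-5, a homeobox factor of heart muscle, measured 59.2 ± 8.70 CPM in Taz-KD hearts and 44.7 ± 3.59 CPM in WT hearts (SD, n = 5 each; log2(FC) 0.40, SE 0.10, adjusted p = 0.00951, edgeR). Tbx3, a repressor of the working heart muscle programme, measured 16.8 ± 1.52 CPM in Taz-KD hearts and 24.1 ± 3.93 CPM in WT hearts (SD, n = 5 each; log2(FC) -0.53, SE 0.11, adjusted p = 0.00400, edgeR). Mef2d was called higher at a log2(FC) of 0.24 (adjusted p = 0.0245, edgeR) and passed in 12 of 21 other settings.

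Of 17 listed fetal and load-response genes of heart muscle, 15 were tested. Of these, 3 were called higher and 3 lower, against 14.4% and 10.3% of all genes (median log2(FC) -0.07). The list was not divided by the direction a gene takes under load, so these counts and the median do not measure a load response. Ankrd1, a stretch-responsive protein of the sarcomere, measured 1662, 2054, 883, 1224 and 1303 CPM in the Taz-KD hearts R1793, R1796, R1797, R1798 and R2, against 307, 575, 865, 514 and 457 CPM in the WT hearts R1791, R1792, R1795, R1800 and R3. Its log2(FC) was 1.39 (SE 0.29, adjusted p = 0.00659, edgeR), with no overlap. Acta1, the skeletal actin of the fetal heart, measured 783 ± 400.2 CPM in Taz-KD hearts and 222 ± 129 CPM in WT hearts (SD, n = 5 each; log2(FC) 1.82, SE 0.57, adjusted p = 0.0464, edgeR) and passed in 9 of 21 other settings. Fhl1 was higher (log2(FC) 1.18, SE 0.27, adjusted p = 0.0102, edgeR). Pln (phospholamban; log2(FC) -0.89, adjusted p = 7.4e-05, edgeR), Atp2a2 (the calcium pump of the sarcoplasmic reticulum; log2(FC) -0.49, adjusted p = 0.00150, edgeR) and Hcn4 (a pacemaker channel; log2(FC) -1.14, adjusted p = 0.00104, edgeR) were lower. Myh7, the slow myosin in the same list, ran from 590.2 to 1055 CPM in Taz-KD hearts and from 777 to 1001 CPM in WT hearts (log2(FC) -0.04, adjusted p = 0.866, edgeR). In the joint fit of all 20 libraries Mme, Pde6d, Pde10a, Gucy1a2, Nos3, Vasp, Tbx3, Mef2d, Ankrd1, Fhl1, Atp2a2 and Pln did not pass (adjusted p from 0.0515 to 0.779, edgeR). Exons of Nos3, Tbx3, Mef2d, Atp2a2, Myh7, Pln, Furin, Pde3a, Pde5a, Kcnj3, Myl4, Mybphl, Gja5, Nr2f1 and Nr2f2 overlap genes on the opposite strand, so the limit stated for Nppa holds for them too.

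**Figure D5:**
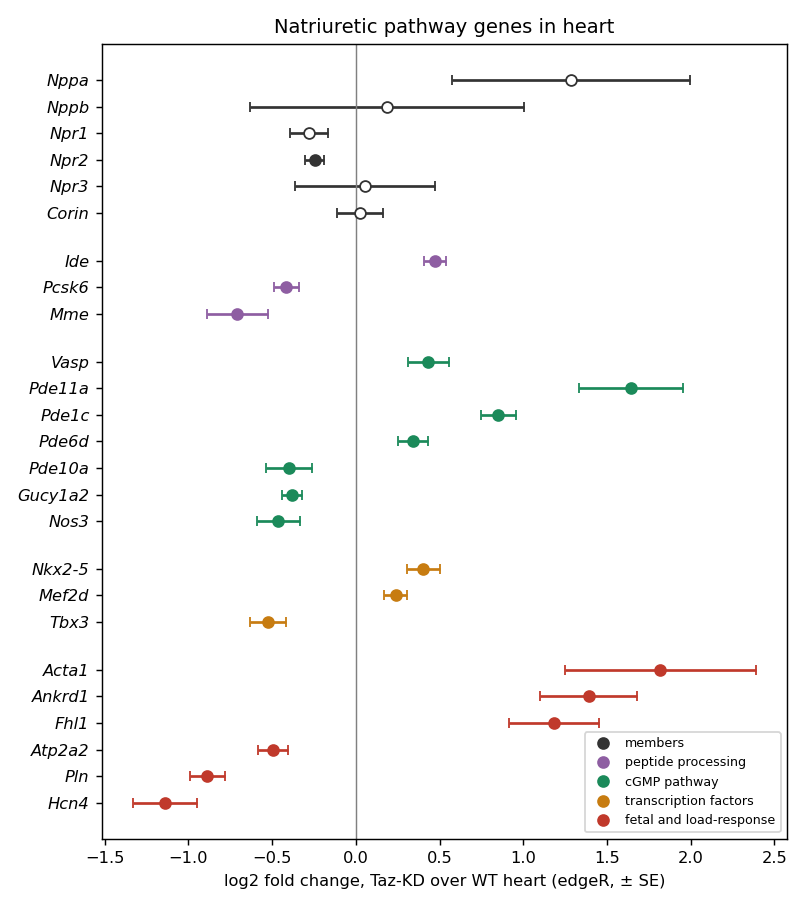
Fitted log2 fold change of Taz-KD over WT hearts with its standard error for 6 members and for the pathway genes called in heart, filled where the gene was called and open where it was not. Npr2 (-0.25) is the filled member, Nppa (1.29) and Nppb (0.18) have wide error bars, and Ostn is left out because it was chosen on this contrast.

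In muscle none of the pathway genes was called with edgeR, among 8 tested for peptide processing and breakdown, 9 for the cGMP kinase and its partners, 10 phosphodiesterases, 6 for soluble cyclase and nitric oxide synthases, 1 for the other membrane cyclases, 13 transcription factors and 16 fetal and load-response genes. Of all 16145 genes tested in muscle only 0.0186% were called, so the lack of calls says little about these lists. Pde3b, a phosphodiesterase of fat cells, measured 4.25 ± 2.23 CPM in Taz-KD muscles and 26.3 ± 33.8 CPM in WT muscles (SD, n = 5 each; log2(FC) -2.63, adjusted p = 0.311, edgeR). Its highest muscles, A33 with 84.5 CPM and A55 with 25.7 CPM, were again those with the largest adipocyte sums.

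The genes with the pattern most like that of Ostn over the 20 libraries, by Pearson's r of log2(CPM + 0.5), were Cars (0.958), Sars (0.946), Set (0.946), Atf4 (0.943) and Mif (0.943). These points share tissue and genotype, and Ostn was chosen on 10 of them, so the r values are a description. Over the 10 hearts, after the mean of each genotype was subtracted, the genes most like Nppa were Gm13054 (0.999), its partner on the opposite strand, and then Speg (0.946), Akr1c14 (0.930), Ccdc63 (0.927) and Prob1 (0.925), with 0.778 for Nppb.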

How the data were processed

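Per the labels, total RNA of frozen heart and femur muscle was depleted of ribosomal RNA and made into strand-marking libraries, read as pairs of 150 bp. The labels describe the same protocol for both tissues, whereas the levels of Rn7sk given above differ widely between them, so the preparation may have differed. The authors aligned the reads to GRCm38 (mm10) with STAR and counted them per gene with featureCounts 1.6.4. The deposited values are raw counts, 47069 genes for heart and 53801 for muscle, with no normalization. The strand setting of the counting was not given in the sources used here, nor were the treatment of reads with several positions and the annotation release. Total counts ran from 26963288 to 35301909 per heart library and from 36429399 to 74361382 per muscle library.

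Counts were analysed per tissue in R 4.3.3 with edgeR 4.0.16 (filterByExpr by genotype, TMM factors, robust quasi-likelihood test, Benjamini-Hochberg adjustment over all genes tested, threshold 0.05). The SE is the log2 fold change divided by the square root of F. The difference between tissues was the interaction in a fit of 20 libraries. Exact two-sided permutation tests used log2(CPM + 0.5). Counting intervals are at 95% and floors are 3 counts. They cover counting error only. Alternatives were DESeq2 1.42.0, limma-voom (limma 3.58.1), other factors and filters, a joint fit, left-out libraries and marker covariates. The code was tested on simulated data. The fits without the WT muscles A33 and A55 and with adipocyte or slow-fibre covariates were chosen after seeing the data. R2 and R3 were left out in an alternative because their animal numbers follow another numbering.

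The labels give each sample its own number and name no batch, and the samples were taken as separate animals by those numbers. The members and all gene lists were chosen with earlier results of these data known. All members are named, and of each pathway list up to 4 called genes by smallest adjusted p and up to 2 uncalled genes of highest level, of which not every one is given. Bmp10, Myl4, Sln, Mybphl, Gja5, Nr2f1, Nr2f2, Dkk3, Stard10, Lep and Rn7sk are markers outside that rule, named after their values were seen. Symbols, positions and overlaps came from GENCODE M21, which holds 53706 of the 54221 identifiers, and promoters from RefSeq.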

Additional observations from a re-analysis of the deposited data

Results flagged for a closer look

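In 2 of 26 groups of 5 libraries, a member had 1 library far from the other 4, by a gap of over 0.71 of the group's range, which chance gives in about 1 of 20 groups. Ostn in the Taz-KD muscles was lowest in A39, at 10.8 CPM, with a gap of 0.777 of the range. A39 also had the lowest sum of slow-fibre markers, 57.6 CPM. A52, with the next lowest sum of the Taz-KD muscles (275 CPM), had the most Ostn of them (56.6 CPM). The part of fibre type in the level of Ostn was not tested beyond the fit with the slow-fibre covariate. Without A39 the log2(FC) of Ostn in muscle was 0.60 (adjusted p = 0.665, edgeR). Npr3 in the Taz-KD muscles was highest in A58, at 11 CPM, with a gap of 0.771 of the range. A58 had the highest slow-fibre sum of the Taz-KD muscles, 3611 CPM, and an adipocyte sum of 299.8 CPM. Without it the log2(FC) of Npr3 in muscle was -3.38 (adjusted p = 0.340, edgeR).

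The genotype effect on Npr3 differed between heart and muscle by 2.94 on the log2 scale (SE 0.74, adjusted p = 0.0285, edgeR interaction over 20 libraries). The heart value was 0.05, and the muscle value was -2.98. Npr3 was below the WT median in 4 of 5 Taz-KD hearts and in 5 of 5 Taz-KD muscles. The part of fat cells in the muscle value was not tested beyond the fits without A33 and A55 and with the adipocyte covariate.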

How the results depend on the processing

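No called value changed sign under the alternatives run, while the log2(FC) of Nppb, Npr3 and Corin in heart and of Ostn and Npr2 in muscle, none of them called, did. In a joint fit of all 20 libraries, 2087 genes and 0 members were called in heart and 167 genes and 1 member (Npr3) in muscle, in place of 4803 genes and 1 member in heart and 3 genes and 0 members in muscle. DESeq2 called 145 genes and 1 member (Npr3) in muscle and 1589 genes for the difference between tissues, in place of 952. With upper-quartile factors the heart calls were 2445 higher and 2511 lower, in place of 2804 and 1999. With each library left out in turn, 1 to 2 members were called in heart (Npr1 beside Npr2 without the WT heart R1800 or the Taz-KD heart R1797), 3 to 5 genes in muscle (5 without the Taz-KD muscle A52), and 607 to 2042 genes for the difference (607 without the Taz-KD heart R1796, 2042 without the WT muscle A57). The difference of Npr3 ranged from 2.63 to 3.32 on the log2 scale over those fits, and was 2.80 with limma-voom and 1.93 without the WT muscles A33 and A55. The cause of these changes was not tested. Per kb of the longest coding transcript in place of all exons, Npr1, Npr2 and Npr3 were higher (7.65, 16.1 and 6.30 in Taz-KD hearts).

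No paired analysis was possible because the numbers are not shared between groups and the labels pair no samples. Depth limits Ostn in WT hearts, Nppc in heart, and Nppa and Nppb in muscle.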
